A study of Homo sapiens with 47 samples.

Results

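HA ChIP-seq with gRNAs for estrogen receptor binding sites (ERBSs) was compared between 2 activators fused to dCas9, dCas9-p300(core) and dCas9-VP16(10x). Libraries were chosen by their labels, which name HA as the antibody target and all ERBSs as the gRNA pools. They are 4 of the 47 samples of the experiment, 2 for each construct, and 3 more HA libraries of dCas9-VP16(10x) served as background (2 with gRNAs for ERBS-adjacent regions and 1 with gRNAs for the IL1RN promoter). All groups were Ishikawa cells, an endometrial carcinoma line, kept in hormone-depleted medium with no estrogen added. The cells were transiently transfected with a plasmid for the dCas9 fusion and with gRNA plasmids, and then selected for both, so that each library is a pool of transfected cells and not a clone. The ERBS gRNAs number 48, 4 for each of 12 sites near MMP17, CISH, FHL2 and HES2. Of 9 epithelial marker genes, all 9 had an RNAPII peak at a transcription start site (TSS) in all 4 IL1RN control libraries of that antibody and 7 had an H3K27ac peak in all 4, whereas of 9 markers of other cell types 1 had an RNAPII peak (CD79A) and 1 an H3K27ac peak (COL1A1), each in 1 library.

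Estrogen receptor α is a nuclear receptor that binds DNA when it has bound estrogen, mostly far from promoters, and acts on genes from there through cofactors. The fusions place such activities at an ERBS without the receptor. dCas9 is a Cas9 that cannot cut, and it binds where a gRNA pairs with DNA beside an NGG motif (the PAM). VP16(10x) is a chain of copies of a viral activation domain that recruits the transcription machinery, and p300(core) is the catalytic part of the acetyltransferase p300, which deposits H3K27ac at enhancers and promoters. The HA tag sits on dCas9, so HA signal reads where the fusion is, whatever domain it carries.

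Several properties of these libraries bear on every value. The study's own plot of HA signal shows the construct names exchanged with respect to the deposited columns, and the values here follow the deposited labels. All HA columns in the table but 1, both of dCas9-p300(core) included, have a name that says that duplicates were taken out. The exception is 1 of the 2 columns of dCas9-VP16(10x) with ERBS gRNAs. These columns differed by less than the sampling noise over the 11 regions without ERBS gRNAs (chi-square 0.503, 10 degrees of freedom, p = 1.00), whereas the dCas9-p300(core) pair differed (chi-square 20.9, p = 0.0217), so the dCas9-VP16(10x) pair was counted as 1 sample. The names do not say to which library the column with duplicates removed belongs. The dCas9-VP16(10x) peak lists at ERBSs are 2 different lists (6184 and 30740 peaks), so columns and lists may not stem from the same libraries. The labels do not say that replicates came from separate cultures. In each library the signal moved in equal steps, each read here as 1 read. On that reading the dCas9-p300(core) libraries held 468 and 1083 reads in the 23 regions of the table, against 11322 and 38238 in the dCas9-VP16(10x) columns. The control promoters by which the authors divided held 19 and 28 reads in the dCas9-p300(core) libraries, against 431 and 510. Counting error of these promoters alone allows all values of the dCas9-p300(core) libraries to move by factors of 0.640 to 1.66 and 0.692 to 1.505 (95% Poisson intervals). Reads are not independent molecules, so such intervals cover counting error only. Peak names of both dCas9-p300(core) lists and of the second list with adjacent gRNAs carry the same number, whereas those of dCas9-VP16(10x) at ERBSs carry none. The labels do not say what this number stands for, and at ERBSs it cannot be told apart from the construct.

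The gRNAs of the ERBSs with the highest and the lowest difference between constructs (CISH-3 and HES2-2) are shown because the comparison turns on them and because near matches to gRNAs of HES2-2 lie under peaks elsewhere. Each is written 5′ to 3′, with 19 bases of the protospacer in lower case and the PAM of the hg19 reference in capitals. CISH-3 lies on chromosome 3 from 50575007 to 50577007, between genes, and its gRNAs match these sites.
CISH-3, 50575933 to 50575954, plus strand: gaaacatgactccagaataCGG
CISH-3, 50575957 to 50575978, minus strand: aagggcagagtgacctgcaAGG
CISH-3, 50576009 to 50576030, plus strand: tctccccgaaagtggtcatAGG
CISH-3, 50576039 to 50576060, minus strand: gtttgcttggctaggagagGGG
HES2-2 lies on chromosome 1 from 6496329 to 6498329, in an intron of ESPN, and its 4 gRNAs match the plus strand.
HES2-2, 6497142 to 6497163: ggtggaatactaacgagaaTGG
HES2-2, 6497298 to 6497319: cagaccttctccggctggcTGG
HES2-2, 6497366 to 6497387: gcagagctcaccgcaggtcTGG
HES2-2, 6497397 to 6497418: cagctgtgcagaccgccgtGGG

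At the ERBSs, HA signal is given relative to the control promoters, which stand at 1. Both dCas9-p300(core) libraries lay above the IL1RN control library at all 12 ERBSs, and so did both dCas9-VP16(10x) columns. The median ratio to the control was 9.61 and 14.7 in the dCas9-p300(core) libraries, and 9.80 with duplicates removed and 21.1 without that mark for dCas9-VP16(10x). The lowest ratio of the first dCas9-p300(core) library was 1.83, at HES2-2, where 3 reads were counted, and that of the second was 6.57, at HES2-3. A position above this control was not particular to ERBSs. Both dCas9-p300(core) libraries also lay above it at every adjacent region, with a median signal of 1.32 and 1.07 against 0.457 in the control. The dCas9-VP16(10x) columns had 0.284 (duplicates removed) and 0.255 there. At the promoters of the target genes the medians were 0.658 and 2.05 with dCas9-p300(core), against 1.81 in the control. No HA library of dCas9-p300(core) with other gRNAs was analysed here, so the control carries the other construct.

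The sites near MMP17, a matrix metalloproteinase gene, ranked between 1 and 8 of the 12 in all 4 columns. MMP17-3 had a signal of 17.4 and 27.3 with dCas9-p300(core), and of 16.5 (duplicates removed) and 62.1 (no such mark) with dCas9-VP16(10x). MMP17-2 had 8.42 and 14.8 against 7.69 and 23.8, and MMP17-1 had 6.58 and 11.96 against 11.9 and 27.4. At these sites the range of dCas9-p300(core) overlapped that of the dCas9-VP16(10x) columns. Near CISH, which encodes a suppressor of cytokine signaling, CISH-1 had 14.2 and 19.5 against 12.9 and 43.1, and CISH-2 had 16.3 and 20.9 against 14.2 and 77.1. CISH-3 had 10.3 and 9.82 with dCas9-p300(core), against 3.11 and 4.20 with dCas9-VP16(10x). Both dCas9-p300(core) libraries thus lay above both columns at CISH-3, on 39 and 55 reads.

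Near FHL2, the gene of a LIM domain protein, FHL2-1 had a signal of 5.53 and 15.0 against 7.97 and 12.4, and FHL2-2 had 4.21 and 9.46 against 7.15 and 12.2. FHL2-3 had 6.32 and 4.64 with dCas9-p300(core), against 2.55 and 2.66 with dCas9-VP16(10x). FHL2-3 was the other ERBS at which both dCas9-p300(core) libraries exceeded both columns. Near HES2, the gene of a bHLH repressor, HES2-1 had 15.0 and 27.5 against 21.2 and 70.7, and HES2-3 had 6.05 and 15.2 against 8.42 and 19.1. HES2-2 had 0.789 and 3.04 with dCas9-p300(core), against 4.51 and 7.60 with dCas9-VP16(10x). HES2-2 was the only ERBS at which both dCas9-p300(core) libraries lay below both columns. Over all 23 regions, both dCas9-p300(core) libraries lay above both columns at 34.8% of regions and below at 17.4%, against 2 and 1 of the 12 ERBSs. These shares are not a like baseline, because the 2 columns lie farther apart at ERBSs. Duplicate removal left a median of 37.0% of reads there and of 91.5% at the other regions. The columns are a pair counted as 1 sample, so their range is not a spread between replicates, and these counts are descriptions only.

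**Figure D1:**
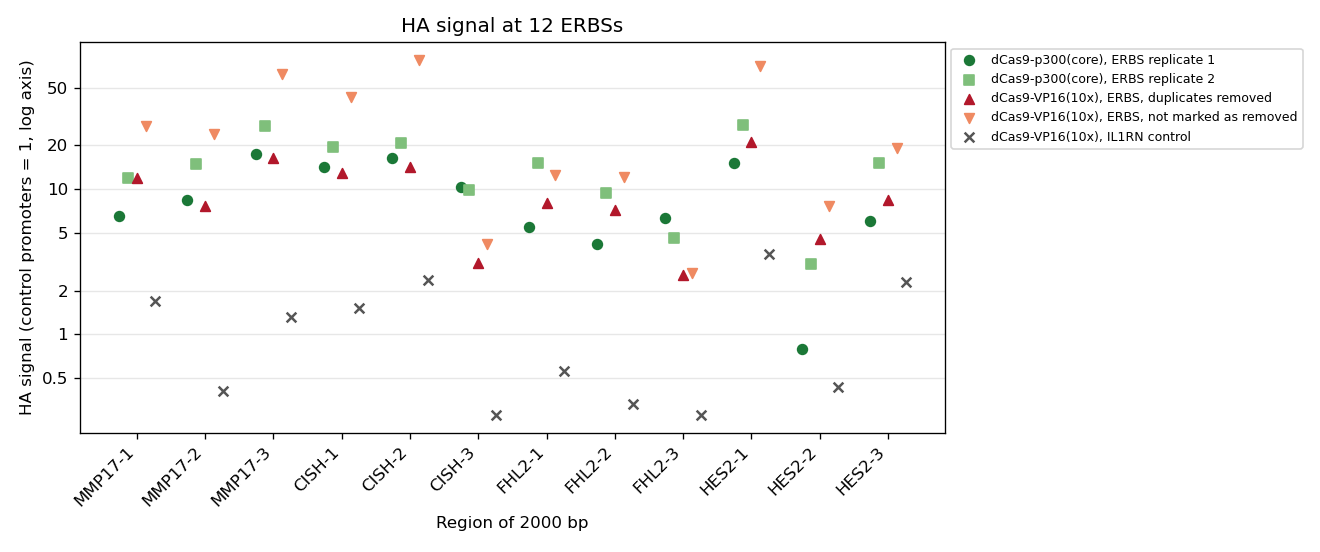
HA signal (log axis, control promoters at 1) at the 12 ERBSs, with 1 point for each dCas9-p300(core) library, each dCas9-VP16(10x) column and the IL1RN control library. The 4 ERBS columns lie above the control at every site, and both dCas9-p300(core) points lie above both dCas9-VP16(10x) columns only at CISH-3 and FHL2-3. At the adjacent regions, not drawn here, the dCas9-p300(core) libraries lie above the control as well.

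Between the constructs, no ERBS passed the test (limma on log2 values over 23 regions, adjusted p of 0.05). Called were 0 of 12 ERBSs and 0% of the 23 regions, and at an unadjusted p under 0.05 there were 3 regions (13% of all), of which 1 was an ERBS. The mean log2 difference over the 12 ERBSs, dCas9-p300(core) minus dCas9-VP16(10x), was -0.54, from a mean level of 2.90 and 3.67 in the dCas9-p300(core) libraries and of 3.82 in the dCas9-VP16(10x) pair. The standard deviation between the dCas9-p300(core) libraries was 0.54, so the difference was no larger than the spread between replicates. CISH-3 had the highest difference, with 1.44 on the log2 scale (standard error 0.47, 95% interval 0.19 to 2.69, adjusted p = 0.232 by limma), but it was -0.38 when all values were divided by the mean of the adjacent regions. FHL2-3 had 1.04 (standard error 0.75, interval -0.93 to 3.00, adjusted p = 0.376 by limma), which was -0.093 after division by the median of the non-targeted regions. HES2-2 had the lowest, with -1.90 (standard error 0.93, interval -4.34 to 0.54, adjusted p = 0.272 by limma). The other 9 ERBSs had differences from -1.30 at CISH-2 to -0.16 at FHL2-1, with intervals that reached from -2.78 to 1.86. Without the second dCas9-p300(core) library, the difference at HES2-2 was -2.83. That fit leaves 1 sample in each of the compared groups and takes its spread from the libraries with adjacent gRNAs only, so its calls are not given. With the replicate number as a block, which the labels give no ground to read as a pairing, HES2-2 and 5 regions without ERBS gRNAs (26.1% of the 23 in all) passed. That fit took the dCas9-VP16(10x) pair, judged above to be 1 sample, as 2 samples. Its passes thus rest in part on 1 sample entered as 2. A difference of 1 on the log2 scale was recovered in 2.33% of cases and one of 3 in 69.7% when 6 of the 23 regions were changed in simulated data for this comparison. The simulated data had the same spread at all regions, unlike the fit, with standard errors of 0.47 at CISH-3 and 0.93 at HES2-2. These rates need therefore not hold for the real test. The sign of 6 of the 12 differences depended on the dCas9-VP16(10x) column. Against the pair, of which 1 column is not marked as duplicate-removed, 10 of 12 ERBSs were lower with dCas9-p300(core). Against the column with duplicates removed, which by its name was handled like the dCas9-p300(core) libraries, 4 of 12 were lower. There the mean difference was 0.22. At ERBSs, duplicate removal left a median of 37.0% of reads (15.6 to 81.2%), whereas elsewhere it left 91.5%.

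**Figure D2:**
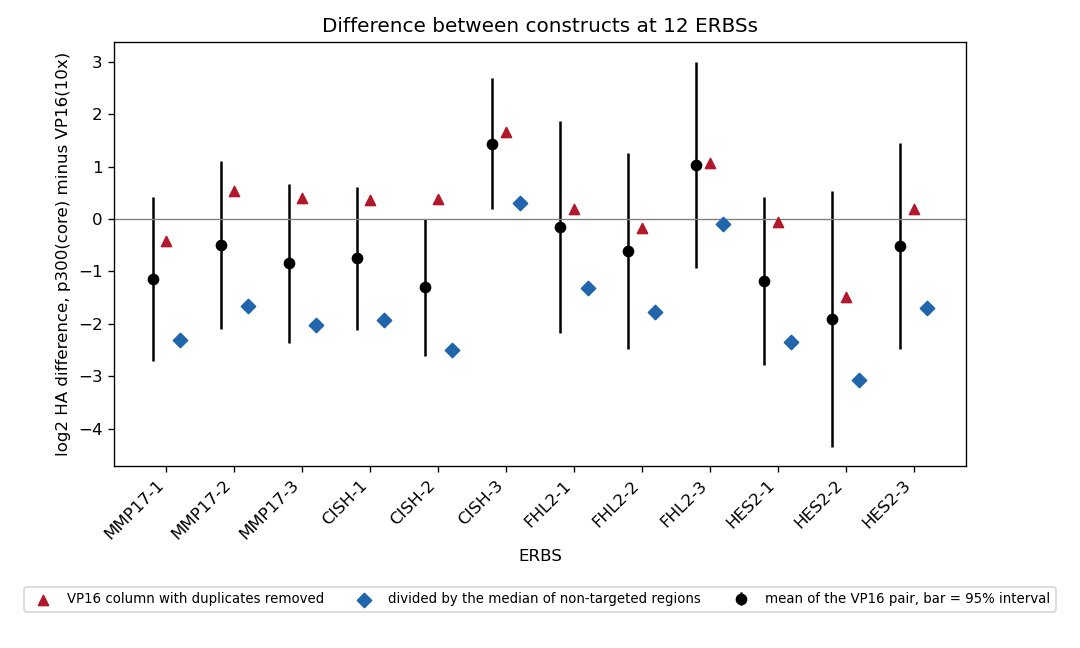
Difference in HA signal between constructs (log2, dCas9-p300(core) minus dCas9-VP16(10x)) at each ERBS. Black points with 95% intervals of limma use the mean of the dCas9-VP16(10x) pair, red points use the column with duplicates removed, and blue points use values divided also by the median of each library's non-targeted regions. CISH-3 lies above 0 under all 3 and HES2-2 below 0 under all 3, although division by the adjacent regions, which is not drawn, puts CISH-3 at -0.38.

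The order of the ERBSs was much the same with both constructs. HES2-1, MMP17-3, CISH-1 and CISH-2 filled the 4 highest ranks in each of the 4 columns, and HES2-2 had the lowest rank in both dCas9-p300(core) libraries. Over the 12 sites, Spearman's rho was 0.77 between the dCas9-p300(core) libraries, and 0.68 and 0.92 between each of them and the dCas9-VP16(10x) column with duplicates removed. CISH-3 ranked 5 and 9 of 12 in the dCas9-p300(core) libraries and 11 in both dCas9-VP16(10x) columns. In the IL1RN control library it shared the lowest signal with FHL2-3 (0.279). The order in that control library, in which no ERBS gRNA was present, gave a rho of 0.42 and 0.77 with the dCas9-p300(core) libraries and of 0.88 and 0.84 with the dCas9-VP16(10x) columns. These are descriptions of 12 sites that share libraries and base composition.

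The regions without ERBS gRNAs differed in pattern between the libraries of the constructs, although no region passed the test of the main fit. The 6 adjacent regions lie near the ERBSs of MMP17, CISH and FHL2, and the promoters are those of the 4 target genes. With dCas9-p300(core), the adjacent regions had a median signal of 1.32 (0.789 to 2.11) and 1.07 (0.357 to 1.25), and the promoters had 0.658 (0.263 to 2.11) and 2.05 (0.714 to 2.86). With dCas9-VP16(10x) and duplicates removed, the adjacent regions had 0.284 (0.209 to 0.499) and the promoters 2.57 (1.81 to 3.54). Both dCas9-p300(core) libraries lay above both dCas9-VP16(10x) columns at 6 of 6 adjacent regions and below both at 3 of 4 promoters (34.8% and 17.4% of all regions). The number of reads per promoter was 0.656 and 2.08 times that per adjacent region with dCas9-p300(core), 7.98 and 8.39 times with dCas9-VP16(10x) at ERBSs, and 4.38 times in the IL1RN control library. The contrast between promoters and adjacent regions was thus lower in the dCas9-p300(core) libraries than in the dCas9-VP16(10x) pair, counted as 1 sample, and in the IL1RN library. The dCas9-p300(core) ratios rest on 14 and 43 reads at promoters and on 32 and 31 at adjacent regions. At FHL2-A, which had the lowest p of the table, signal was 1.84 and 1.07 against 0.255 and 0.235 (log2 difference 2.21, standard error 0.56, adjusted p = 0.211 by limma). At MMP17-B it was 1.32 and 1.25 against 0.313 and 0.275 (log2 difference 1.88, standard error 0.53, adjusted p = 0.211 by limma). None of the 11 regions passed the threshold, and 2 had an unadjusted p under 0.05. With the replicate number as a block and the dCas9-VP16(10x) pair entered as 2 samples, FHL2-A (adjusted p = 0.0197 by limma), MMP17-B (adjusted p = 0.0350 by limma), CISH-B, FHL2-B and the MMP17 promoter passed. These p-values treat a pair judged to be 1 sample as replicates. Without the second dCas9-p300(core) library, which leaves 1 sample in each of the compared groups, the log2 difference was 2.58 at FHL2-A and 1.92 at MMP17-B. The dCas9-p300(core) values at adjacent regions rest on 2 to 8 reads each.

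The choice of reference regions therefore moved the comparison at ERBSs. Against adjacent regions, reads per ERBS were 6.59 and 16.2 times those per adjacent region with dCas9-p300(core), and 29.9 times with duplicates removed and 102 times without that mark with dCas9-VP16(10x). Against the target promoters, the same ratios were 10.0 and 7.78 for dCas9-p300(core), and 3.75 and 12.1 for dCas9-VP16(10x). On the first scale both dCas9-p300(core) libraries lay below both dCas9-VP16(10x) columns, and on the second they lay between them. On the log2 scale, the ERBSs stood 3.09 and 3.41 above the 11 regions without ERBS gRNAs with dCas9-p300(core) and 4.14 above them in the dCas9-VP16(10x) pair, a difference of -0.89. The standard deviation between the dCas9-p300(core) libraries was 0.22, but the dCas9-VP16(10x) pair, counted as 1 sample, gives no spread between replicates. With duplicates removed, the dCas9-VP16(10x) level was 3.34, between those of the dCas9-p300(core) libraries, and without that mark it was 4.63.

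**Figure D3:**
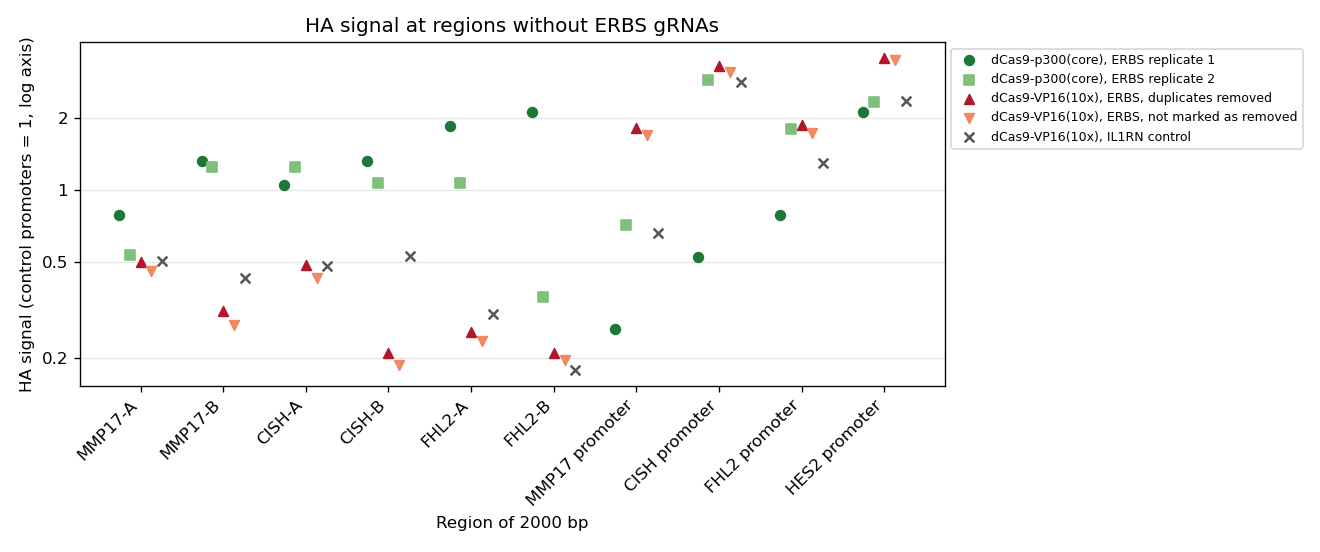
HA signal (log axis, control promoters at 1) at the 6 adjacent regions and the promoters of the 4 target genes, neither of which the ERBS gRNAs target, with 1 point for each library or column. The dCas9-p300(core) points lie above both dCas9-VP16(10x) columns at each adjacent region and below both at the MMP17, CISH and HES2 promoters.

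Peaks were called by the authors in each library. The dCas9-p300(core) lists held 154 and 141 peaks and the dCas9-VP16(10x) lists held 6184 and 30740, while the 3 lists with other gRNAs held 4785 to 25109. Their median fold enrichment over local background was 11.2 and 10.0 with dCas9-p300(core), and 7.52 and 12.95 with dCas9-VP16(10x). The median width was 66 and 343 bp, against 266 and 464 bp. Enrichment and width overlapped between the constructs, whereas the numbers of peaks did not. The titles of both dCas9-VP16(10x) libraries at ERBSs carry the word stringent, those of dCas9-p300(core) do not, and the labels do not explain it. The dCas9-p300(core) libraries also held fewer reads in the 23 regions (468 and 1083, against 11322 and 38238 in the dCas9-VP16(10x) columns). At ERBSs neither can be told apart from the construct. The first dCas9-p300(core) list differed from the second in its narrow peaks, the narrowest of which spanned 48 bp.

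At the ERBSs, a peak was listed at 3 and 10 of 12 sites with dCas9-p300(core) and at 12 and 12 with dCas9-VP16(10x). Lists with other gRNAs held a peak at 3 to 8 of the 12. With dCas9-p300(core), CISH-1 (fold enrichment 10.6 and 41.6), CISH-3 (14.3 and 23.7) and HES2-1 (9.46 and 17.3) had a peak in both lists. The second list lacked only FHL2-3 and HES2-2. The ERBS with the highest fold enrichment was CISH-1 in the second dCas9-p300(core) list (41.6) and in the first dCas9-VP16(10x) list (98.6), CISH-3 in the first dCas9-p300(core) list (14.3) and HES2-3 in the second dCas9-VP16(10x) list (165). When peaks were ordered by their -log10 p, ERBSs filled 10 and 8 of the 12 highest ranks of the dCas9-VP16(10x) lists and 0 and 0 of those of the dCas9-p300(core) lists, in which the best ERBS ranked 91 of 154 and 14 of 141. The ERBS peaks ranked 91 to 137 in the first dCas9-p300(core) list and 14 to 43 in the second. These lists also held 14 and 13 peaks on EP300 exons that are part of the dCas9-p300(core) construct, described below, which the dCas9-VP16(10x) lists with ERBS gRNAs lacked.

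Where an ERBS peak was listed, its summit lay at the gRNAs in most cases. The summit fell between the outermost ends of the 4 gRNAs of a site at 2 of 3 and 9 of 10 sites with dCas9-p300(core), and at 11 and 12 of 12 with dCas9-VP16(10x). The median distance from the centre of the gRNAs was 98 and 47 bp, against 80 and 63 bp. The exception with dCas9-p300(core) was HES2-1 in both lists, where the summit lay 611 and 498 bp from the centre of the gRNAs on the side of the lower coordinates. In the dCas9-VP16(10x) lists the HES2-1 summit lay 85 and 45 bp from that centre on the same side.

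The highest peaks of both dCas9-p300(core) lists lay on exons of EP300, the gene that encodes p300, and not at an ERBS. The cloning primers of the p300 core mark which part of EP300 is in the construct, and the parts that anneal to EP300 are printed for that reason, with none of the letters in capitals since the whole run pairs.
forward primer: attttcaaaccagaagaactac
reverse primer: gtcctggctctgcgtgtgcag
On the hg19 reference the insert runs from the last base of exon 16 to exon 30 of 31 (chromosome 22, 41548354 to 41572463), with 1851 bp in exons. Of the 14 exons that give more than 1 base to the insert, all 14 were overlapped by a peak in both dCas9-p300(core) lists (14 and 13 peaks), and 0 of the 16 other exons of EP300 were. A summit lay inside an insert exon for 14 of 14 and 12 of 13 of these peaks. Their fold enrichment ran from 34.5 to 83.6 in the first list, with 6 exons at that upper value, and from 17.7 to 132 in the second. By fold enrichment, the 5 highest peaks outside the targeted loci of each list were of this kind, and in the second list they lay on exons 24 and 25 (132, as 1 peak), exon 30 (131), exon 18 (94.9), exon 27 (93.0) and exon 29 (75.3). The nearest annotated TSS to these peaks is that of L3MBTL2, the neighbouring gene. The exons of the insert are 57 to 240 bp long, and the shortest had the lowest fold enrichment in both lists. No peak of the dCas9-p300(core) lists lay elsewhere in EP300.

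No insert exon had a peak in either dCas9-VP16(10x) list with ERBS gRNAs. The same was true of the IL1RN list and of the first list with adjacent gRNAs. The second list with adjacent gRNAs, whose peak names carry the number of the dCas9-p300(core) lists, had 11 peaks on 12 of the 14 exons, with a fold enrichment of 10.2 to 62.7. In the 4 H3K27ac and 4 RNAPII control lists, insert exons had 13 and 0 peaks (H3K27ac, dCas9-p300(core)), 5 and 0 (H3K27ac, dCas9-VP16(10x)), 12 and 12 (RNAPII, dCas9-p300(core)) and 1 and 1 (RNAPII, dCas9-VP16(10x)). The H3K27ac lists with peaks there and the RNAPII lists of dCas9-p300(core) carry that number, the H3K27ac lists with 0 carry none, and the RNAPII lists of dCas9-VP16(10x) carry another. Peaks on insert exons thus moved with the number in the peak names as well as with the construct, and their part in the comparison was not tested. At all 12 insert exons with a peak in all 3 HA lists, both dCas9-p300(core) values were above that of the dCas9-VP16(10x) list.

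**Figure D4:**
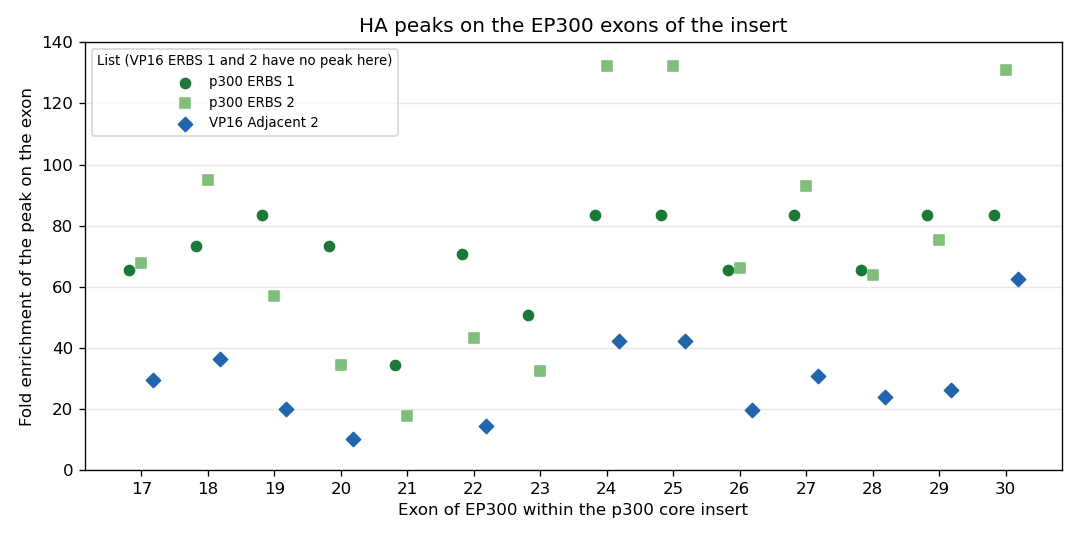
Fold enrichment of the HA peak on each EP300 exon that gives more than 1 base to the p300 core insert, by exon number, in both dCas9-p300(core) lists with ERBS gRNAs and in the second dCas9-VP16(10x) list with adjacent gRNAs. The dCas9-p300(core) lists have a peak on all 14 exons and the dCas9-VP16(10x) list on 12, at lower enrichment, while both dCas9-VP16(10x) lists with ERBS gRNAs have none.

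Outside the ERBSs and the insert exons, the dCas9-p300(core) lists differed from each other. In the first list, 122 of 154 peaks (79.2%) lay within 3 Mb of an assembly gap of 1 Mb or more, where 4.26% of the assembled genome lies. In the second list 21 of 141 (14.9%) did, and in the dCas9-VP16(10x) lists 2.86% and 2.87%. A summit within 1 kb of the TSS of a protein-coding gene was found for 4 of 154 peaks of the first list (2.60%, exact binomial 95% interval 0.712 to 6.52%) and for 73 of 141 of the second (51.8%, 43.2 to 60.3%). In the dCas9-VP16(10x) lists it was found for 70.0% (68.8 to 71.1%) and 54.7% (54.2 to 55.3%), and in the lists with other gRNAs for 61.3 to 75.2%. TSS windows of this size cover 1.77% of the genome. The second dCas9-p300(core) list thus resembled the dCas9-VP16(10x) lists in its share at TSSs, and the first did not.

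**Figure D5:**
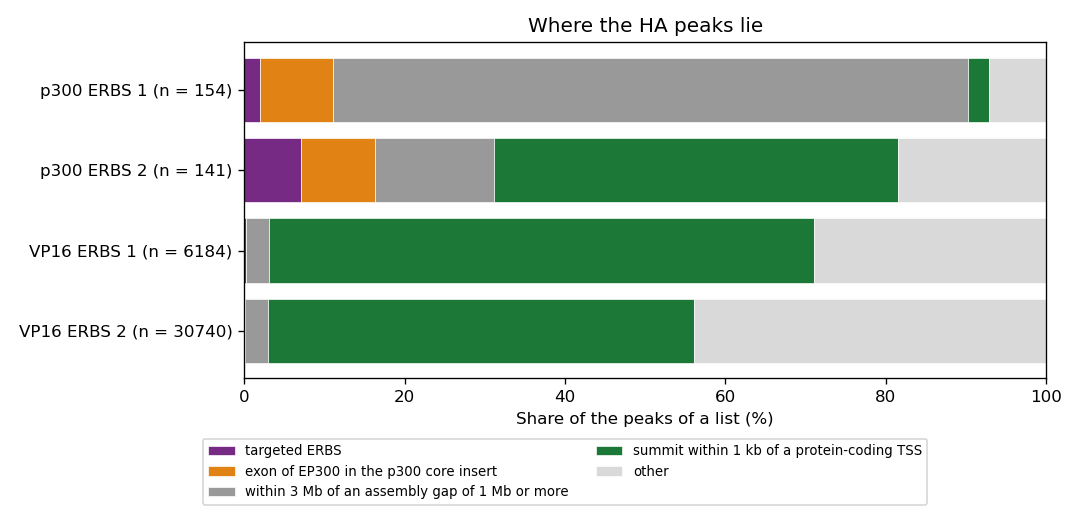
Share of the peaks of each list with ERBS gRNAs (in %, with the number of peaks of the list) that lie at an ERBS, on an EP300 exon of the insert, near a large assembly gap, within 1 kb of a TSS or elsewhere, each peak counted under the first class that holds it. Assembly gaps take 79.2% of the first dCas9-p300(core) list, and TSSs take 50.4% of the second and 67.9 and 53.2% of the dCas9-VP16(10x) lists.

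Of single peaks outside EP300 and the targeted loci, the highest of both dCas9-p300(core) lists lay at the promoter of EEF1A1, which encodes the translation elongation factor eEF1A1 (chromosome 6, 74230725 to 74230951 in the first list). Its fold enrichment was 68.2 and 46.3 with dCas9-p300(core), 8.47 and 87.7 with dCas9-VP16(10x) at ERBSs, and 8.65 to 53.0 in the lists with other gRNAs, so it was present in all 7 lists. The next in both, 4500 bp from a TSS of TBC1D5 (chromosome 3, 17443683 to 17443748), had 42.4 and 18.5 with dCas9-p300(core), 15.7 in the second dCas9-VP16(10x) list and 14.7 in the second list with adjacent gRNAs, and no peak in the other 3. In the second dCas9-p300(core) list the promoters of ADGRL2 (15.9), HMGA2 (15.7) and SMIM10L1 (15.4) came next among promoters. Each of these promoters also had a peak in a list of dCas9-VP16(10x) with ERBS gRNAs and in a list with other gRNAs, with 28.0 at HMGA2 in the second dCas9-VP16(10x) list. None of them had a peak in the first dCas9-p300(core) list.

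As shares of each list, 6 of 154 (3.90%) peaks of the first dCas9-p300(core) list and 109 of 141 (77.3%) of the second were overlapped by a peak of the second dCas9-VP16(10x) list. In the other direction, 0.0195% and 0.348% of the 30740 peaks of that list were overlapped. Of the peaks of the second dCas9-p300(core) list outside the targeted loci and the insert exons, 99 of 118 (83.9%) had a peak in the second dCas9-VP16(10x) list and 102 (86.4%) in the second list with adjacent gRNAs, so most were seen with other gRNAs as well. The dCas9-p300(core) lists shared 47 of 154 (30.5%) and 36 of 141 (25.5%) peaks with each other, and 98.9% of the first dCas9-VP16(10x) list lay in the second. Of the peaks of the second dCas9-p300(core) list, 56.7% were overlapped by H3K27ac peaks in both IL1RN control libraries of the construct and 73.0% by RNAPII peaks, against 0% (exact binomial 95% interval up to 2.37%) and 9.74% in the first, where 13 of the 15 peaks under RNAPII were those on insert exons. For dCas9-VP16(10x) the shares were 54.6 and 35.3% under H3K27ac and 84.3 and 54.2% under RNAPII. The control lists differ in size (4088 to 35592 peaks), so these shares are not compared between constructs.

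Peaks outside the targeted loci were then searched for places that followed the ERBS gRNAs. A peak outside the targeted loci (by more than 5 kb) was in both dCas9-p300(core) lists and both dCas9-VP16(10x) lists at 1 place, the EEF1A1 promoter, and 0 such peaks were absent from all lists with other gRNAs. Of the 5706 peaks of the second dCas9-VP16(10x) list that were outside the loci and also in the first, 174 were in no list with other gRNAs. Among the 100 of these with the highest fold enrichment, 7 held, within 100 bp of the summit, an exact match to the 12 bases next to the PAM of an ERBS gRNA, followed by NGG. This was so for 7 of the 100 highest that were also in a list with other gRNAs, for 0 of the 100 highest of the IL1RN list, and for 0 of 15 and 0 of 97 peaks of the dCas9-p300(core) lists away from loci, insert exons and gaps. These sets were chosen after the values were seen, and a match is a description of letters and not of binding.

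The places with the fewest mismatches to HES2-2 gRNAs over 19 bases are shown. HES2-2 was the only ERBS at which both dCas9-p300(core) libraries lay below both dCas9-VP16(10x) columns, although it did not pass the test of the main fit. Positions are counted from 1 at the 5′ end of the gRNA, the letters in capitals are the PAM, and a substitution gives the base of the gRNA and then that of the site. A peak between genes on chromosome 1 (17036897 to 17037690) had a site with 1 mismatch, C12T, and a peak at the promoter of NEBL, which encodes a Z-disc protein (chromosome 10, 21462960 to 21463821), had 1 with 3 mismatches, C1A, G6C and T7C.
HES2-2 gRNA: cagaccttctccggctggcTGG
chr1:17037421-17037442, minus strand: cagaccttctctggctggcTGG
HES2-2 gRNA: cagctgtgcagaccgccgtGGG
chr10:21463219-21463240, plus strand: aagctccgcagaccgccgtGGG
The peak on chromosome 1 had a fold enrichment of 18.9 and 58.4 in the dCas9-VP16(10x) lists and 6.38 in the second list with adjacent gRNAs. The NEBL peak had 35.0 and 94.9, against 18.9 in that list and 9.35 in the IL1RN list. Neither place had a peak in a dCas9-p300(core) list, and neither did HES2-2 itself. Of all peaks of the second dCas9-VP16(10x) list, only 0.0195% and 0.348% were overlapped by the dCas9-p300(core) lists, so absence there is the usual case. The second dCas9-p300(core) list held 1 peak with 2 mismatches to an ERBS gRNA, a HES2-3 gRNA, between genes on chromosome 1 (17027703 to 17028067), where its fold enrichment was 7.20 and all lists with other gRNAs had a peak too.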

How the data were processed

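HA ChIP-seq of Ishikawa cells was analysed from 1 table of 23 regions and 15 peak lists (7 HA and 8 IL1RN control lists). The members and lists were chosen with earlier results of these data known. The authors aligned reads to hg19 with Bowtie 1.1.2, removed duplicates with SAMtools, counted reads in regions of 2000 bp with bedtools, scaled them by sequencing depth, and deposited this signal for HA relative to the average over 5 promoters held to be background. Peaks were deposited with a fold enrichment (ratio to local background), a -log10 p and a -log10 q, and the submitters' processing notes name MACS2 2.1.0.20140616. A further 32 columns of values were not used.

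The log2 of HA signal plus 0.0742, the smallest value above 0, was fitted in limma 3.58.1 (R 4.3.3) over 6 samples, with a mean per combination of construct and gRNAs, the dCas9-VP16(10x) ERBS pair entering as its mean. That group and the IL1RN group hold 1 sample each, and their spread is taken from the groups with 2. P-values were two-sided, from 2 residual degrees of freedom with variances moderated over regions, and adjusted by Benjamini-Hochberg over 23 regions. Simulated data, drawn 100 times, were used to check this step.

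Peaks overlapped when they shared at least 1 bp. TSSs are those of protein-coding transcripts of GENCODE 44 lifted to GRCh37, the sequence of hg19. Named were the 12 ERBSs and other regions, the 5 highest peaks outside the targeted loci in each dCas9-p300(core) list and shared peaks absent with other gRNAs. Peaks named beyond these, the insert exons, the assembly gaps and the gRNA match sets were chosen after their values were seen. Alternatives were other pseudocounts, either or both dCas9-VP16(10x) columns, another scaling, a filter on reads, a replicate block, and, for peaks, stricter thresholds, other distances and equal numbers, with each library left out in turn.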

Additional observations from a re-analysis of the deposited data

How the results depend on the processing

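Of 383 alternatives of single regions 348 kept direction and side of the threshold, 21 turned direction and 14 newly passed, and of 160 alternatives of the comparisons 131 held and 29 moved. Leaving out a library with adjacent or IL1RN gRNAs could not change any difference in signal between constructs. The filter on reads could not change those it kept. Such alternatives are among those that kept direction or held, so these counts do not measure robustness. All new passes came from the replicate block or from the fit without the second dCas9-p300(core) library, whose limits are given above. For most changes the cause was not tested.

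With a pseudocount of 1, the level of ERBSs above the other regions differed by -0.61. With the dCas9-VP16(10x) column with duplicates removed alone, the mean ERBS difference was 0.22 and that above the other regions -0.084, and MMP17-2 (0.53), MMP17-3 (0.40), CISH-1 (0.36), CISH-2 (0.38), FHL2-1 (0.19) and HES2-3 (0.19) turned. With the other column alone, the difference above the other regions was -1.38. After division by the median of the non-targeted regions, the mean difference was -1.70, FHL2-3 was -0.093 and MMP17-A was -0.66. 3 settings were added after seeing the data. Division by the adjacent regions with both columns gave a mean of -2.21, CISH-3 at -0.38, FHL2-3 at -0.78, MMP17-A at -1.18 and CISH-A at -0.46. The same with duplicates removed gave -1.53, -0.34 above the other regions, CISH-3 at -0.098, FHL2-3 at -0.68, MMP17-A at -1.17 and CISH-A at -0.47. Division by the median with duplicates removed gave -0.16 above the other regions, FHL2-3 at -0.0046 and MMP17-A at -0.66.

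The replicate block called 1 ERBS (HES2-2) and 5 other regions, 26.1% of the 23. Samples share only a number, with correlations of same-numbered deviations of 0.12, 0.12 and 0.22 over 23 regions.

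With each library left out in turn, called ERBSs ranged from 0 to 1 and other called regions from 0 to 7, the latter without the second dCas9-p300(core) library. The mean ERBS difference ranged from -0.92 to -0.15 and that above the other regions from -1.04 to -0.73. FHL2-1 ranged from -0.87 to 0.55, HES2-3 from -1.18 to 0.14 and the IL1RN promoter from -3.49 to 0.46. For dCas9-p300(core) lists, ERBSs with a peak ranged from 3 to 10, peaks overlapped by dCas9-VP16(10x) from 5.19 to 78.7%, median fold enrichment from 10.0 to 11.2, width from 66 to 343 bp, TSS share from 2.60 to 51.8%, and shares under H3K27ac from 0 to 56.7% and RNAPII from 9.74 to 73.0%. For dCas9-VP16(10x) lists, overlapped peaks ranged from 0.0325 to 0.825%, fold enrichment from 7.52 to 12.95, width from 266 to 464 bp, TSS share from 54.7 to 70.0%, H3K27ac from 35.3 to 54.6% and RNAPII from 54.2 to 84.3%.

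Among peaks with a -log10 p of at least 20, 1 ERBS had a peak in both dCas9-p300(core) lists and their median fold enrichment was 12.003. A TSS distance of 5 kb gave dCas9-VP16(10x) a share of 68.8%. With 141 peaks per list, its overlapped share was 7.45%, fold enrichment 39.2, width 740.5 bp, H3K27ac 63.1% and RNAPII 80.5%. A count test on recovered reads was not run. Depth also limits the dCas9-p300(core) values, since 19 and 28 reads set their scale.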
